A study of Mus musculus with 8 samples.

Results

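Among the 20681 genes of the table, 8 myosin heavy chain genes of striated muscle fibres are described here, namely Myh4, Myh1, Myh2, Myh7, Myh6, Myh7b, Myh3 and Myh8. They were taken by gene symbol from a list of fast, slow, embryonic and neonatal chains, and all 8 were found. Myh13, a further striated chain with values in the table, is not on that list and is given only beside its neighbours. Poly-A RNA was sequenced from whole knees of mice in 2 groups of 4 libraries, which the labels call control and knockout. The knockout is of Loxl2, whose product, lysyl oxidase-like 2, crosslinks collagen. The labels describe all 8 joints as coming from Acan-Cre;Loxl2 fl/fl mice, so that the controls carry the Cre and the floxed alleles too, although the control library names carry LOXL2wt and the other names LOXL2ko. The controls are described as vehicle-treated, and what the other group was given is not stated, nor are age, sex, strain background or time after surgery. All 8 library names carry DMM, usually the abbreviation of destabilisation of the medial meniscus, a surgical joint injury. Acan, which drives the Cre, is a gene of cartilage cells and not of muscle fibres, and every joint was measured as bulk tissue with whatever muscle was left on it. The labels do not say whether each library is 1 animal, so the p-values below measure the spread between these libraries, which may in part be technical.

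Muscle fibres contract when myosin heads pull on actin, and the heavy chain carries the motor head and the rod that packs into the thick filament. Mammals have a separate gene for each fibre type: Myh4 makes the chain of the fastest, glycolytic IIB fibres, Myh1 that of IIX fibres, Myh2 that of fast oxidative IIA fibres and Myh7 that of slow type I fibres and of the heart ventricle. Myh6 is the chain of the atrium and, in rodents, of the adult ventricle, Myh7b is an ancient relative found in the heart, eye muscles and muscle spindles, and Myh3 and Myh8 are the embryonic and perinatal chains, which return when fibres regenerate. Mouse limb muscle is mostly fast, and IIB fibres are abundant in it.

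The libraries held 13991000 to 17411617 reads assigned to genes, and values below are normalised reads, the read count of a gene divided by the size factor of its library. In mean, the transcript of the targeted gene went against the label. Loxl2 read 282, 349, 1135 and 311 in the controls, in the order of their replicate numbers, against 893, 1468, 960 and 1518 in the libraries labelled knockout, a log2 difference of 1.44 ± 0.40 (limma adjusted p = 0.0294). The groups overlap, since control replicate 3 was above knockout replicates 1 and 3. Bulk tissue gives no Loxl2 level for cartilage cells alone, so these values do not show whether the gene was deleted in them. The second group is therefore written as the libraries labelled knockout, and every direction is that of the label only. Differences are log2 values of the libraries labelled knockout minus the controls, ± the standard error of the fit. The 8 heavy chains together took 4.13% to 4.94% of all normalised reads in the controls and 2.60% to 3.74% in the libraries labelled knockout. The cartilage of the joint was seen by its defining genes: Col2a1, the collagen of cartilage, was at 146 to 2721 normalised reads in the controls and 658 to 1528 in the other group, and Acan, the aggrecan gene, at 52.3 to 544 and 184 to 372. The summed level of 10 genes listed for cartilage ran from 15276 to 37982 and from 32030 to 56122, but most of it came from Prg4 (10288 to 29856 and 22669 to 42836) and Comp, which synovium and tendon also make.

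The coding sequences of these genes are close enough that a read of one can equal a stretch of another, which bears on how far their counts can be told apart. The window shown here was chosen because it is identical in the adult fast chains. It is a stretch of 100 coding bases (positions 1549 to 1648 of the Myh4 coding sequence, counted from the start codon, GENCODE M21 transcripts), and capitals mark the bases that differ from Myh4.
Myh4: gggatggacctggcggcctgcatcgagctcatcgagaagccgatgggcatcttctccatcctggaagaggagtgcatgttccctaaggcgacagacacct
Myh1: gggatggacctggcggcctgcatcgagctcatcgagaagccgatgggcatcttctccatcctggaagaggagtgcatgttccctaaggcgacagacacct
Myh2: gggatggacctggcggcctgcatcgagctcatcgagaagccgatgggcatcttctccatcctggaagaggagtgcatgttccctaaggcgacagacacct
Myh8: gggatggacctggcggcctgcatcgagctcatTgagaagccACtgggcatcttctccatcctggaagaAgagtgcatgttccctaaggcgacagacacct
Myh3: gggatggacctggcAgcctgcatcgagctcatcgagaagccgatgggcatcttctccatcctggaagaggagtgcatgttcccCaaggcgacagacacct
Myh7: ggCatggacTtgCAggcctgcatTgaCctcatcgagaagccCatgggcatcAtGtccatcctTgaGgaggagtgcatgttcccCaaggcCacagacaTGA
The Myh1 and Myh2 sequences had 0 differences from Myh4 in this window, Myh3 had 2, Myh8 had 4 and Myh7 had 16. Over the whole coding sequence, identity was 90.1% between Myh1 and Myh4, 90.95% between Myh1 and Myh2 and 91.7% between Myh6 and Myh7, and Myh7b was 68.8% to 72.0% identical to the others. Of all 100-base windows of the transcript, the share that occurs letter for letter in another gene was 9.73% for Myh1, 9.17% for Myh2, 3.85% for Myh4, 11.2% for Myh7, 11.4% for Myh6, 6.61% for Myh8, 1.15% for Myh3 and 0% for Myh7b. With windows of 50 bases the share was 26.7% for Myh1, 26.9% for Myh2, 18.9% for Myh4 and 21.4% for Myh8. It was 22.2% for Myh7, 22.6% for Myh6, 4.81% for Myh3 and 0% for Myh7b. How the authors' counting treated reads that match several genes is not given in the sources used here. Reads from these stretches may therefore be split or lost, most of all between Myh6 and Myh7 and between Myh1 and Myh2, and a small share of the Myh4 reads could add to the count of a chain as low as Myh8.

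The adult fast genes and Myh8 lie in a row on chromosome 11, and the 250 bases before their start sites are shown so that the start regions of these neighbours can be compared. The sequences are those of RefSeq on GRCm38.p6, the build of mm10, read on the plus strand. Capitals mark the longest run of bases shared by Myh4, Myh1 and Myh2, which is 20 bases long, and in Myh8 the 14 bases of it that all 4 genes share.
Myh4 (chr11:67237562-67237811): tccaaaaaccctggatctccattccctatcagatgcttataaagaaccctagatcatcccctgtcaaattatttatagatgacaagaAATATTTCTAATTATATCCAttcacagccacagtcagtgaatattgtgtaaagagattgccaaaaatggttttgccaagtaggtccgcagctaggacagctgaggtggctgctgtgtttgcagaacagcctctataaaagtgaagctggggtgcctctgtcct
Myh1 (chr11:67199852-67200101): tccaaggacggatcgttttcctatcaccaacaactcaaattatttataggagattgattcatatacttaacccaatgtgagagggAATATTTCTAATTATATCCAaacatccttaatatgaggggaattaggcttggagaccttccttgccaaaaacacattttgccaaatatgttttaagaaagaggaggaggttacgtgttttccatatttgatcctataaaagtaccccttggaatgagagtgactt
Myh2 (chr11:67170777-67171026): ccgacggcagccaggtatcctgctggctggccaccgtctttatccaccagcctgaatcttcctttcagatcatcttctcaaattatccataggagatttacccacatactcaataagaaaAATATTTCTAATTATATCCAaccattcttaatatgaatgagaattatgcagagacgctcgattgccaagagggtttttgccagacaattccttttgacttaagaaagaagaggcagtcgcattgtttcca
Myh8 (chr11:67276874-67277123): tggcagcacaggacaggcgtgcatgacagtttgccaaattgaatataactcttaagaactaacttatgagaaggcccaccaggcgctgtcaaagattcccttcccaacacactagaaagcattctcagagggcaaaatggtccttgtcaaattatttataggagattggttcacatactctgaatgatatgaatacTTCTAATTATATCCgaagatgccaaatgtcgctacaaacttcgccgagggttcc
The run starts 163 bases before the start site in Myh4, 165 before it in Myh1 and 130 before it in Myh2, and the 14 shared bases lie 54 bases before it in Myh8. Of 32851 start-site windows of the same length, 3 hold the 20 bases and 4 hold the 14, so these are found in no other gene of that table. A match to the MEF2 site (on either strand) was found in Myh4, Myh1 and Myh8 and in 2.92% of all windows, and no match was found in Myh2. TATAAA on either strand was found in Myh4, Myh1, Myh8 and Myh3 and in 12.4% of all windows. It overlaps the MEF2 match in Myh4, Myh1 and Myh8, and lies 31, 32 and 29 bases before the start site in Myh4, Myh1 and Myh3. A CArG box was found in Myh4 alone of the 8 and in 1.47% of all windows. These are matches of letters, not shown to be bound.

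The slow and cardiac genes Myh7, Myh6 and Myh7b each hold a microRNA in an intron, and the sequences are shown because those of Myh7 and Myh6 share a seed, the bases 2 to 8 in capitals.
miR-208b-3p (in Myh7): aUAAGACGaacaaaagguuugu
miR-208a-3p (in Myh6): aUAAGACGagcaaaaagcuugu
miR-499-5p (in Myh7b): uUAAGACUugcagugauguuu
The libraries were made from poly-A RNA and do not measure mature microRNAs, so the host transcripts described here give no level for them.

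Myh4, the IIB chain, was the most abundant heavy chain in every library and was lower in every library labelled knockout than in every control. Its normalised reads were 621912, 508351, 542792 and 665766 in the controls and 413625, 325459, 242178 and 181927 in the libraries labelled knockout. The groups do not overlap, and knockout replicate 4 was the lowest. The mean went from 584705 ± 71977 to 290797 ± 100838 (SD, n = 4 each), which is 0.497 of the control mean, a log2 difference of -1.07 ± 0.35. That difference missed the threshold of 0.05 by little (limma adjusted p = 0.0521), and passed it in edgeR (adjusted p = 0.0186) and DESeq2 (adjusted p = 0.000164). With a pseudocount of 10 the limma adjusted p was 0.0628. With 1 library left out, limma called Myh4 only without knockout replicate 1 (adjusted p = 0.0461). In the other 7 such fits it was not called, with limma adjusted p up to 0.129. Quantile normalisation, which sets values by rank within a library, gave -0.40 (limma adjusted p = 0.253). The part of that step in the smaller difference was not tested. In bulk tissue, fewer fibres and less transcript per fibre cannot be told apart, here and below.

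Myh1, the IIX chain, had about the same mean in both groups. It was at 85134, 146997, 173876 and 89331 normalised reads in the controls and at 91096, 89421, 174913 and 116096 in the libraries labelled knockout. Control replicates 2 and 3 and knockout replicate 3 were high, and the groups overlap over nearly their whole range. The log2 difference was -0.06 ± 0.31 (limma adjusted p = 0.911), and its sign changed to 0.33 under quantile normalisation. Its spread over the 8 libraries was small, 2.05 times from lowest to highest, against 3.66 times for Myh4 and 4.53 times for Myh2.

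Myh2, the IIA chain, lay between them. It was at 41920, 55087, 33095 and 63125 normalised reads in the controls and at 13940, 21848, 39648 and 38181 in the libraries labelled knockout. Knockout replicates 1 and 2 were below all controls, and knockout replicates 3 and 4 were above control replicate 3, the lowest control. The log2 difference of -0.85 ± 0.34 did not pass the test (limma adjusted p = 0.0965).

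**Figure D1:**
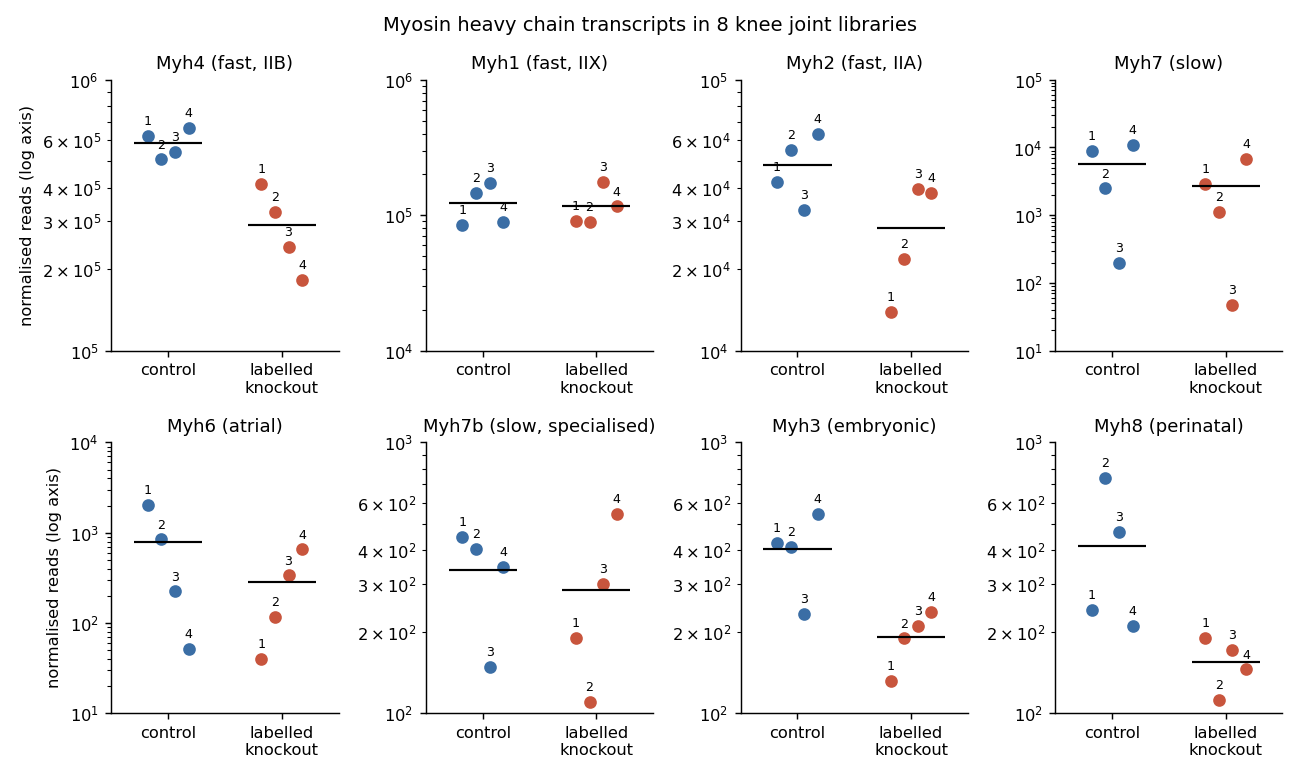
Normalised reads (log axis) of the 8 chains in the 4 control libraries and the 4 labelled knockout, 1 point a library with its replicate number and the line at the arithmetic mean of the group. The groups are apart for Myh4 and Myh8, nearly so for Myh3, and overlap for the other 5, and the spread within a group is widest for Myh7 and Myh6.

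Myh7, the slow chain, differed far more between libraries of 1 group than between the groups. It was at 8990, 2484, 197 and 10895 normalised reads in the controls and at 2861, 1108, 46.8 and 6700 in the libraries labelled knockout. Control replicate 3 and knockout replicate 3 were by far the lowest of their groups, and control replicates 1 and 4 and knockout replicate 4 were the highest, so that the highest library held 233 times the lowest. The log2 difference was -1.39 ± 1.59 (limma adjusted p = 0.555). Without knockout replicate 3 it was 0.07, on the other side of 0.

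Part of the slow fibre programme was lowest in the same libraries as Myh7. Of 11 genes, namely 9 slow fibre genes and the slow light chains Myl2 and Myl3, all 11 had their lowest control in control replicate 3, and 7 (Tnnc1, Tnni1, Tnnt1, Atp2a2, Tpm3, Myl2 and Myl3) also had their lowest library labelled knockout in replicate 3. The other 4 did not: in Fhl1 and Csrp3 knockout replicate 3 was the highest of its group, at 43013 and 1880 normalised reads, and in Casq2 and Ankrd2, at 759 and 1247, it was below knockout replicate 4 alone. Tnnc1, the slow troponin C, was at 2655, 987, 89.7 and 2115 normalised reads in the controls and at 652, 346, 101 and 1777 in the other group. Tnni1, the slow troponin I, was at 2483, 921, 151 and 2028 in the controls and at 637, 314, 100.05 and 2595 in the libraries labelled knockout. In both, as in Myh7, replicate 3 of each group was the lowest. Of the 9 slow fibre genes, 0 were called by limma, edgeR or DESeq2, and 1 had an unadjusted p under 0.05. The median of their log2 differences was -0.80. Over all 14949 genes tested, 5741 had an unadjusted limma p under 0.05.

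Myh6, the atrial chain, was ordered differently from Myh7, its neighbour on chromosome 14. It was at 2031, 844, 224 and 51.5 normalised reads in the controls and at 39.9, 117, 337 and 655 in the libraries labelled knockout. Control replicate 1 was high in both genes, but control replicate 4, the highest for Myh7, was near the lowest for Myh6, and knockout replicate 3, the lowest for Myh7, was above 2 controls and 2 libraries of its own group for Myh6. For Myh6 the log2 difference was -1.06 ± 1.13 (limma adjusted p = 0.523). Of 9 genes that mark heart muscle, Nppa, Nppb, Nkx2-5 and Gata4 were looked up and had no values in the table. Tnni3, the heart troponin I, was at 4.04 to 39.2 normalised reads and Ryr2 at 4.33 to 18.6. Actc1, the cardiac actin that skeletal muscle also makes in small amounts, was at 1335 to 2970. The summed level of the 5 heart genes with values was 1557 to 3150 in the controls and 1475 to 1653 in the other group, and limma, edgeR and DESeq2 called 0 of these 5 (1 had an unadjusted p under 0.05).

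Myh7b was at 449, 406, 149 and 346 normalised reads in the controls and at 190, 110, 301 and 543 in the libraries labelled knockout. Control replicate 3 and knockout replicate 2 were the lowest and knockout replicate 4 the highest, and the groups overlap over nearly the whole range. The log2 difference was -0.36 ± 0.48 (limma adjusted p = 0.615).

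**Figure D2:**
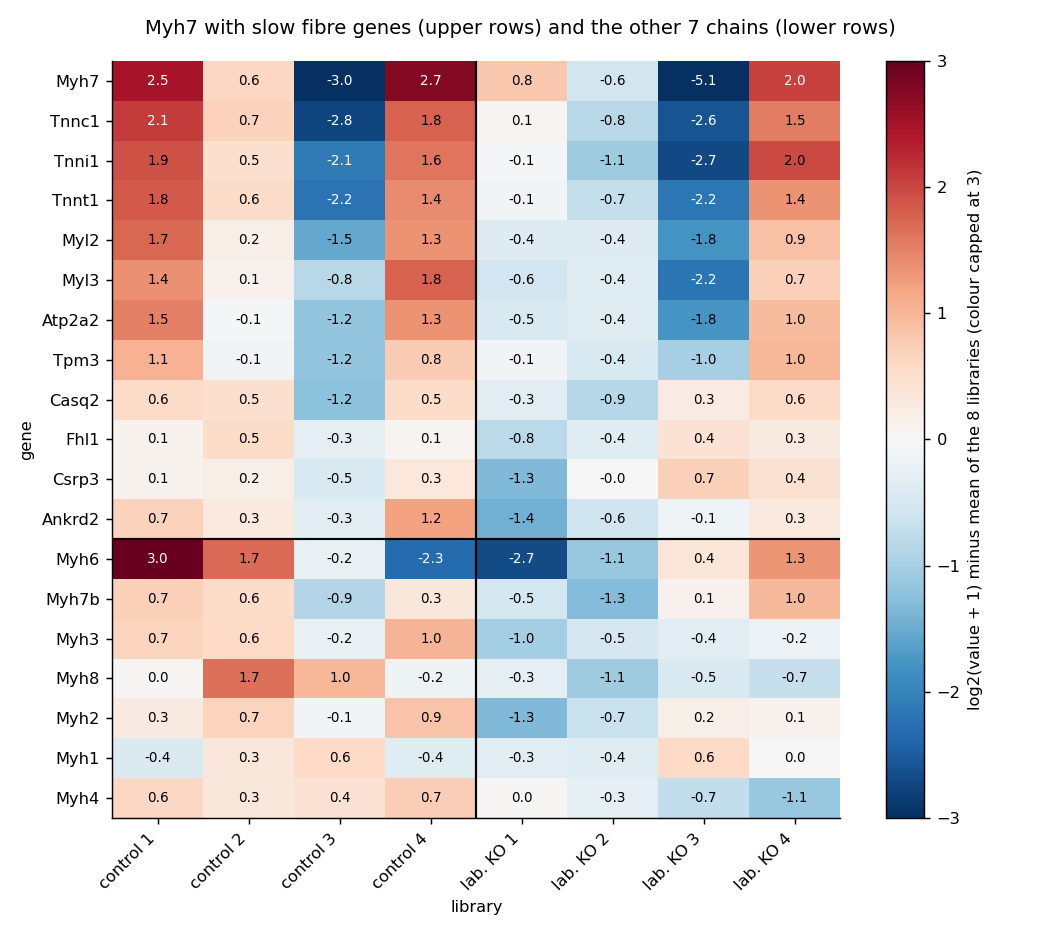
Colours and numbers give log2(value + 1) of each gene (rows) in each library (columns), minus the gene's mean over the 8 libraries. The rows above the line are Myh7 and 11 slow fibre genes, with control replicate 3 the lowest control in all 11 and in Myh7, and the rows under it are the other 7 chains.

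Both developmental chains fell. Myh3, the embryonic chain, was at 426, 411, 234 and 543 normalised reads in the controls and at 132, 189, 211 and 237 in the libraries labelled knockout. Control replicate 3 was the lowest control, and knockout replicate 4 was above it by a small margin, so the groups overlap by that 1 pair of libraries. The log2 difference was -1.04 ± 0.26 (limma adjusted p = 0.0204), and it was lost without control replicate 2 (limma adjusted p = 0.0553) or control replicate 4 (limma adjusted p = 0.053). Myh8, the perinatal chain, was at 241, 742, 467 and 210 in the controls and at 190, 112, 172 and 145 in the libraries labelled knockout. The groups do not overlap, and control replicates 2 and 3 stand above the other controls. The log2 difference was -1.26 ± 0.37 (limma adjusted p = 0.0342), and the call did not survive the removal of any of 5 libraries. The limma adjusted p became 0.0673 when control replicate 2 was removed and 0.0692 when control replicate 3 was, and 0.0502, 0.087 and 0.0845 when knockout replicate 1, 2 or 4 was.

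Read against the whole table, the 8 chains gave 2 calls, both lower, which is 25.0% of them. Of all 14949 genes tested, 23.2% were called in either direction, 11.6% lower and 11.6% higher. The share of 2 in 8 is near that in either direction and above that called lower. With only 8 genes, this difference was not tested. Groups that do not overlap with the libraries labelled knockout lower were found for 2 of the 8, Myh4 and Myh8, against 13.4% of all genes tested. All 8 log2 differences were below 0, Myh1 by the least, with a median of -1.05 beside a median of 0.00 over all genes tested.

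The muscle genes that fast and slow fibres share were lower too. Of 15 such reference genes (among them Acta1, the skeletal actin, Ckm, the muscle creatine kinase, Des, Ttn and Neb), 10 fell and 0 rose, with a median log2 difference of -0.59. In this and the later counts of listed genes, fell and rose mean called by limma. Over all genes tested, 11.6% were called lower and 11.6% higher. Acta1 (limma adjusted p = 0.0934), Ttn (limma adjusted p = 0.212) and Neb (limma adjusted p = 0.0633) were not called. Ryr1, the calcium release channel, went from 71947 ± 4317 to 35173 ± 4531 normalised reads (log2 difference -1.04, limma adjusted p = 0.004). Klhl41, which stabilises thin filaments, went from 12787 ± 1105 to 8536 ± 1003 (log2 difference -0.59, limma adjusted p = 0.0084). Cmya5, a muscle protein that binds desmin, went from 37485 ± 2100 to 24121 ± 3003. To ask whether a heavy chain moved against these genes, the mean log2 level of the 15 was subtracted in each library, and the whole table was fitted again. This moves the median of all genes by 0.61, since the reference itself was lower in the libraries labelled knockout, and 63.2% of all genes were then called, 62.9% higher and 0.308% lower. On that scale limma called 0 of the 8 chains, and 0 had an unadjusted p under 0.05. Myh4 was at -0.46 ± 0.23 (limma adjusted p = 0.103), Myh3 at -0.43 (limma adjusted p = 0.147) and Myh8 at -0.65 (limma adjusted p = 0.133). Myh1 was at 0.55 ± 0.28 (limma adjusted p = 0.104), above the muscle reference and opposite in sign to Myh4.

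**Figure D3:**
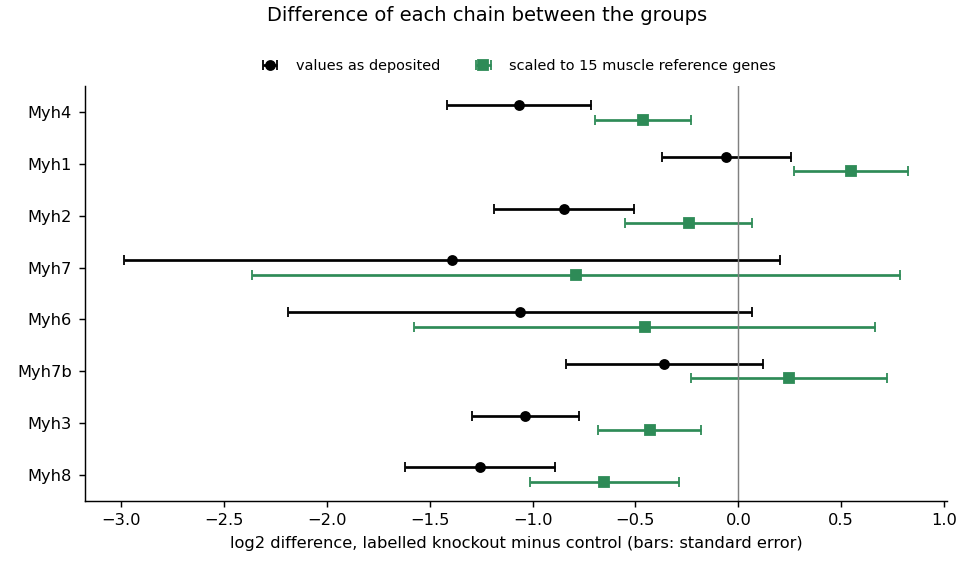
Log2 difference of each chain between the libraries labelled knockout and the controls, with the standard error of the limma fit, for the values as deposited (circles) and after scaling to 15 muscle reference genes (squares). Scaling moves every chain to the right by the same amount, and the error bars of Myh7 and Myh6 span 0 on both scales.

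The balance between the chains was tested by the log2 ratio of each to Myh4 within a library. Myh1 relative to Myh4 was at -2.87, -1.79, -1.64 and -2.90 in the controls and at -2.18, -1.86, -0.47 and -0.65 in the libraries labelled knockout. Knockout replicates 3 and 4 were above all controls, and knockout replicates 1 and 2 were among the controls. The difference of the means was 1.01, and the exact two-sided permutation test over the 70 assignments of the libraries gave p = 0.171, where the smallest p it allows is 0.0286. The ratios of the other 6 chains to Myh4 differed by between -0.33 (Myh7) and 0.71 (Myh7b), with exact permutation p from 0.429 to 1, and all 7 adjusted values were 1. Those 7 p-values do not show that the chains move alike, since the SD within a group was as large as 3.15 for the ratio of Myh7.

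The share of each chain was computed from reads per kilobase of transcript, so that the levels of different genes can be compared. The order was Myh4, then Myh1, then Myh2 in 8 of 8 libraries, and these 3 together made 97.7% to 99.8% of the summed level. Myh4 alone made 81.9%, 71.3%, 72.5% and 80.4% of it in the controls and 79.4%, 74.5%, 53.2% and 53.1% in the libraries labelled knockout. Knockout replicates 3 and 4 had the lowest shares of the 8 and the other 2 were among the controls. Myh1 made 11.1%, 20.4%, 23.0% and 10.7% in the controls and 17.3%, 20.2%, 38.0% and 33.5% in the libraries labelled knockout. The share of Myh2 was between 2.65% and 11.02%. Behind them, Myh7 came next in 6 of 8 libraries, with 0.00991% to 1.89% of the sum, but not in control replicate 3, and in knockout replicate 3 it was the lowest of the 8. Myh6, Myh7b, Myh3 and Myh8 each made at most 0.263%, 0.155%, 0.0689% and 0.102%, and their order changed from library to library within both groups. In reads per kilobase, Myh6 ranged over the 8 libraries from 6.53 to 332, Myh7b from 17.9 to 88.1, Myh3 from 21.8 to 90.1 and Myh8 from 18.2 to 121, so these 4 neighbours in the order did not differ beyond their spread. The summed level of the 8 chains per kilobase was 126721 ± 8010 in the controls and 72973 ± 12242 in the other group (SD, n = 4 each).

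**Figure D4:**
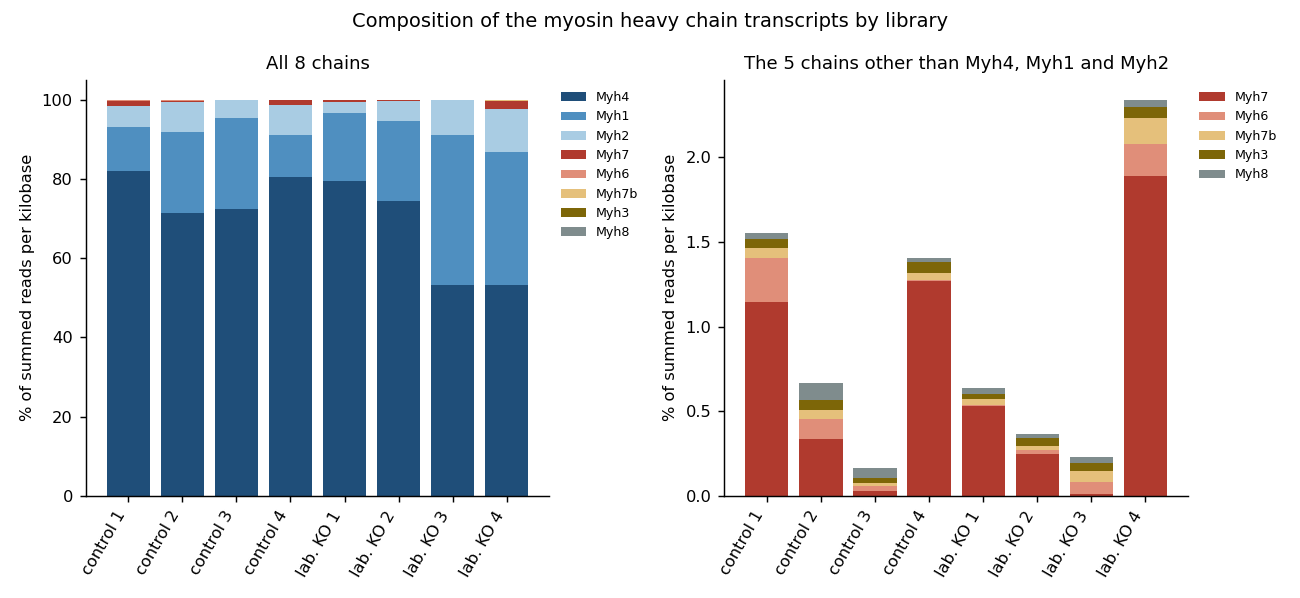
Share of each chain in the summed reads per kilobase of the 8 chains, 1 bar a library, for all 8 (left) and for the 5 chains other than the adult fast ones on a wider scale (right). Myh4 makes 53.1% to 81.9% of the sum, and the 5 other chains together make 0.166% to 2.34%.

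The fast and developmental genes form a cluster of 230335 bases on chromosome 11 (67078300 to 67308634 on mm10), all on the plus strand, in the order Myh3, Myh2, Myh1, Myh4 and Myh8. Myh1 is at 67200052 to 67224575 with Myhas, an antisense transcript, over its end on the minus strand, and Myh4 is at 67238029 to 67260446. Myh2 at 67171027 to 67197517 overlaps the antisense transcript 9430073C21Rik, Myh3 is at 67078300 to 67102291 and Myh8 at 67277124 to 67308634. Myh7 (54970684 to 54994626) and Myh6 (54941921 to 54966927) are neighbours on the minus strand of chromosome 14, and Myh7b is on chromosome 2 (155611212 to 155634307). Whether the counting used strand is not stated, so reads of a gene and of its antisense partner may not have been kept apart. Myhas was at 546, 806, 637 and 405 normalised reads in the controls and at 469, 454, 562 and 378 in the libraries labelled knockout (log2 difference -0.33, limma adjusted p = 0.249). The lincRNA 2310065F04Rik, known as linc-Myh, lies between Myh3 and Myh2 on the minus strand. It was at 1201, 1520, 1659 and 1102 in the controls and at 488, 930, 623 and 293 in the other group. Its groups do not overlap, and it fell by 1.33 on the log2 scale, with an error of 0.30 (limma adjusted p = 0.0143). Myh13, the superfast chain of eye and larynx muscles, was at 60.6, 284, 279 and 14.2 in the controls and at 43.9, 32.5, 327 and 96.8 in the libraries labelled knockout, high in the same 3 libraries in which Myh1 was highest (control replicates 2 and 3 and knockout replicate 3). Some 100-base windows of Myh1 occur letter for letter in Myh13, so reads of Myh1 may add to its low count. The part of such reads in this pattern was not tested.

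**Figure D5:**
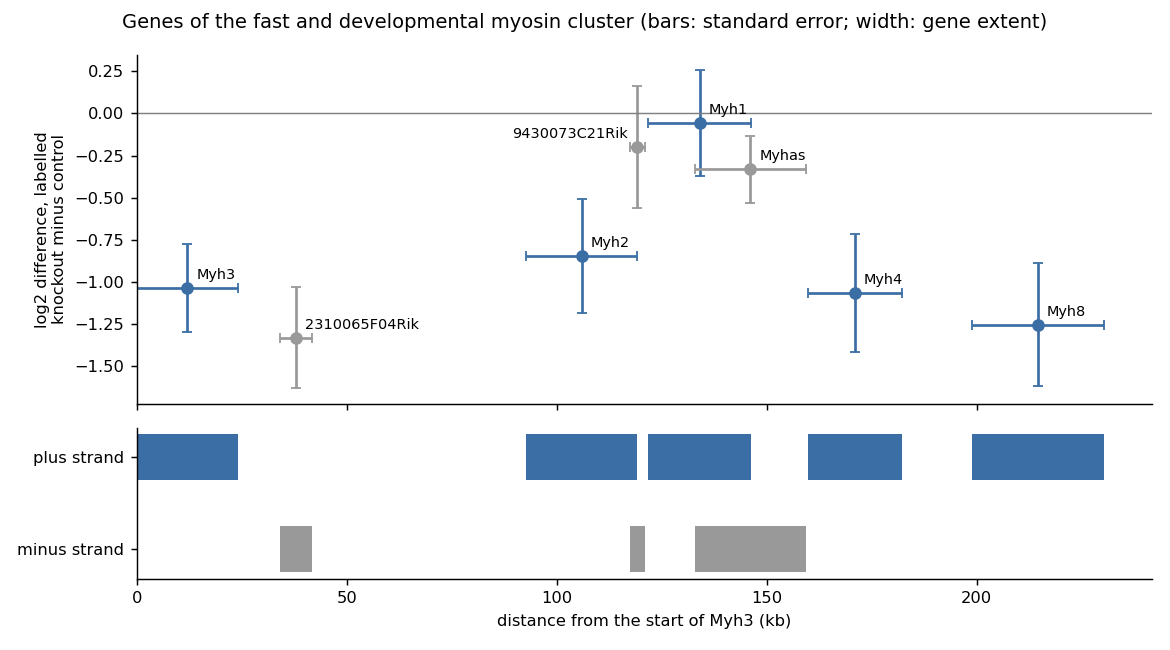
Genes of the cluster with values in the table by their distance from the start of Myh3 (horizontal axis, kb), with the log2 difference and its standard error above and the strand below. Myh1, between Myh2 and Myh4, is at -0.06 while its neighbours are at -0.85 and -1.07.

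For each chain, the genes of the table whose pattern over the 8 libraries was most like its own were listed by the root mean square difference of log2(value + 1), each gene centred on its mean. Closest to Myh4 were Prkag3, the AMP kinase subunit of glycolytic fibres (0.11), Ampd1, the muscle AMP deaminase (0.16), and Gdf11 (0.16). Prkag3 was at 3024, 2444, 2893 and 3243 normalised reads in the controls and at 1732, 1363, 1190 and 882 in the libraries labelled knockout, the same order as Myh4 within the latter group. Closest to Myh2 were Ldhb, the lactate dehydrogenase of oxidative fibres (0.19), Actn2, the α-actinin of all fibres (0.20), and the predicted gene Gm15915 (0.23). Closest to Myh1 were Aqp11 (0.13), Catsper2 (0.18) and Etv5 (0.18), of which Aqp11 had only 8.98 to 23.4 normalised reads. Closest to Myh7 were the slow troponins Tnnc1 (1.02), Tnni1 (1.07) and Tnnt1 (1.26), a wider distance because Myh7 ranged more than any of them. Closest to Myh7b were Casq2, the slow and cardiac calsequestrin (0.28), 4921514A10Rik (0.31) and Myoz2, the calsarcin of slow fibres (0.33). Closest to Myh3 were Paqr9 (0.18), Zdhhc23 (0.18) and Dusp18 (0.20), closest to Myh8 were 5430431A17Rik, Eif3j2 and Crym (0.37 to 0.39), and closest to Myh6 were Fam196b, Gm3375 and Gm5702 (1.07 to 1.12). Among the chains themselves the closest pair was Myh2 and Myh3, at 0.30. All these distances are taken over the same 8 libraries, and the part of muscle content in them was not tested.

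The proteins that work with the heavy chains were counted in the same fit. Of 13 tested genes listed for the thick filament, its assembly and the Z disc, 9 fell and 0 rose, with a median log2 difference of -0.66. Myoz3, a fast fibre calsarcin of the Z disc, went from 1328 ± 55.9 to 610 ± 137 normalised reads (log2 difference -1.15, limma adjusted p = 0.004). Mypn, the Z-disc protein myopalladin, went from 6149 ± 444 to 3476 ± 488 (log2 difference -0.83, limma adjusted p = 0.004). Myom1, which crosslinks thick filaments at the M band, fell by 0.84 on the log2 scale and Smyd1, a methyltransferase needed for thick filament assembly, by 0.66. Of 13 tested light chains and their kinases, 2 fell and 2 rose. The fallers were Mylk4 (log2 difference -0.94, limma adjusted p = 0.012) and Myl1, the fast essential light chain (log2 difference -0.69, limma adjusted p = 0.0301). The risers were Mylk, the kinase of smooth muscle (0.61, limma adjusted p = 0.0142), and Myl6, the light chain of smooth and non-muscle myosin (0.46, limma adjusted p = 0.0208). Of the 6 other heavy chain genes listed (Myh9, Myh10, Myh11, Myh13, Myh14 and Myh15), 1 rose and 2 fell. Myh14, a non-muscle chain that muscle fibres also make, fell from 1598 ± 193 to 825 ± 53.7 (log2 difference -0.95, limma adjusted p = 0.004). Myh10, another non-muscle chain, fell by 0.60 on the log2 scale (limma adjusted p = 0.0434), and Myh9, the non-muscle chain of most migrating and matrix-forming cells, rose from 1814 ± 241 to 2535 ± 253 (log2 difference 0.49, limma adjusted p = 0.0157).

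Of 9 fast fibre genes, 5 fell and 0 rose, with a median log2 difference of -0.61. Casq1, the fast calsequestrin, fell by 0.79, Actn3, the α-actinin of fast fibres, by 0.97, Pfkm, the muscle phosphofructokinase, by 0.61, and Atp2a1, the calcium pump of fast fibres, by 0.99 on the log2 scale, with limma adjusted p from 0.0075 to 0.0245. Of 15 fibre-type regulators, 8 fell and 0 rose, with a median of -0.38. Sox6, the repressor of slow genes in fast fibres, went from 2060 ± 225 to 1298 ± 152 (log2 difference -0.67, limma adjusted p = 0.0056), and Mef2c fell by 0.57, Maf, the large Maf factor that favours Myh4, by 0.51 and Mef2d by 0.42 on the log2 scale. Of 8 tested genes of regenerating fibres, 1 rose and 1 fell. Ncam1, the adhesion protein of regenerating and denervated fibres that nerves also carry, rose from 201 ± 65.3 to 364 ± 49.96 (log2 difference 0.90, limma adjusted p = 0.0176), and Myf6, the factor of mature fibres, fell by 0.54 (limma adjusted p = 0.0128). Myod1 was at -0.45 (limma adjusted p = 0.0534), Myog at -0.36 (limma adjusted p = 0.323) and Pax7, the satellite cell factor, at -0.31 (limma adjusted p = 0.424). The fusion genes Mymk and Mymx and the embryonic receptor subunit Chrng were under the filter. Mymk was at 11.9, 42.4, 24.3 and 1.10 normalised reads in the controls and at 0, 3.42, 1.09 and 2.64 in the libraries labelled knockout.

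Fibroblast and macrophage genes were higher in the libraries labelled knockout, while erythroid genes were lower in median, as the heavy chains were. Of 12 fibroblast genes, 10 rose and 0 fell (median log2 difference 1.67), and their summed level was 72561 to 209853 in the controls and 230057 to 397518 in the libraries labelled knockout. Postn, the matrix protein periostin, went from 852 ± 610 to 7616 ± 555 normalised reads (log2 difference 3.42, limma adjusted p = 0.004). All 10 macrophage genes rose (median 1.36), with a summed level of 3030 to 7128 in the controls and 11029 to 15085 in the other group. C1qb, a complement subunit of macrophages, went from 427 ± 117 to 1011 ± 88.7 (log2 difference 1.28, limma adjusted p = 0.004), and Ctss and Cd68 rose by 1.72 and 1.71. Of 10 cartilage genes 2 rose, Col11a1 and Hapln1, and 0 fell. Matn3, a cartilage matrix gene, was at 0 in control replicate 3 and at no more than 56.5 normalised reads elsewhere. Of 5 smooth muscle genes 1 fell, Lmod1, and 0 rose. Of 7 erythroid genes, 0 were called by limma, edgeR or DESeq2, although all 7 had an unadjusted p under 0.05, with a median log2 difference of -1.95, and their summed level was 16755 to 98968 in the controls and 4040 to 42558 in the other group. Of 8 neutrophil genes, 0 were called by limma, edgeR or DESeq2 and 1 had an unadjusted p under 0.05. Of 6 fat cell genes, limma and edgeR called 0, DESeq2 called 1 and 0 had an unadjusted p under 0.05. For comparison, 5741 of all 14949 genes tested had an unadjusted limma p under 0.05. None of the fibroblast and macrophage genes was at 0 in any library. The part of these cell types, blood included, in the lower share of heavy chain reads was not tested.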

How the data were processed

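Whole-joint poly-A RNA-seq was analysed from 4 control libraries and 4 labelled knockout, grouped by their titles. Per the submitters' processing notes, the authors aligned reads with HISAT2 to mm10 and counted them with featureCounts, and per the labels they used DESeq2. Versions and the use of strand are not given in the sources used here. The deposited signal is a read count divided by the authors' size factor (0.913 to 1.17 when recomputed): 100% of the values in each library were whole multiples of 1 step (tolerance 0.001), so whole reads were recovered. The smallest sum over the libraries was 10 reads. Of the value columns, 0 were unmapped.

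The 14949 genes that reached 10 normalised reads in 4 or more of the 8 libraries were tested on log2(value + 1) with limma 3.58.1 (lmFit, eBayes with trend), adjusted by Benjamini-Hochberg and called at an adjusted p under 0.05. The log scale understates changes of low genes. Ratios were tested by exact two-sided permutation, adjusted over 7 ratios. Alternatives were other pseudocounts (0.1 and 10), filters (none, or at least 50), TMM, quantile normalisation, scaling without muscle and blood genes and the 50 highest genes, another muscle reference of 9 fast fibre genes, a replicate term, edgeR 4.0.16 and DESeq2 1.42.0 on the recovered reads, and leaving out each library. Over all genes, limma called 3461, edgeR 3324 and DESeq2 4125. The limma, edgeR and DESeq2 fits were run on simulated counts with the same variability set for every gene. This does not cover chains as widely spread as Myh7 and Myh6, and the limit on false calls was not applied to DESeq2.

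Levels between genes were compared per kilobase of the longest coding transcript. Coding sequences were aligned with MAFFT 7.526. The genes and lists were chosen with earlier results of these data known. Besides the 8 chains, the rule names from each list at most 4 called genes of smallest p (2 of smallest p where none was called), and for each chain the 3 genes of nearest pattern. Other genes named were chosen after their values were seen. Some genes that the rule names are not reported here.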

Additional observations from a re-analysis of the deposited data

How the results depend on the processing

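The number of genes called, 3461 as reported, was 2018 with a replicate block and 1751 to 3841 when 1 library was left out, the fewest without knockout replicate 4. The number of heavy chains called, 2 as reported, was 4 with DESeq2 (Myh2 and Myh4 added), 3 with edgeR (Myh4 added), and likewise 3, with Myh4 added, in limma with a pseudocount of 0.1 (adjusted p = 0.0461), with the filter at 50 (0.025) and with TMM (0.0474), and 0 to 2 when 1 library was left out, 0 without control replicate 2. After scaling to the muscle reference the number of heavy chains called was 0 as reported. With the replicate block it was 2 (Myh1, limma adjusted p = 0.0386, and Myh7, limma adjusted p = 0.0395). It was 0 to 2 when 1 library was left out, 2 without control replicate 3. Calls were common among all genes on that scale: 9447 as reported, 7687 with the replicate block and 9246 without control replicate 3. In both of those fits Myh1 was called higher, at 0.55 with the block and 0.78 without control replicate 3 (limma adjusted p = 0.0199). The other call was lower, namely Myh7 at -0.79 with the block and Myh3 at -0.63 without control replicate 3 (limma adjusted p = 0.0356). In the fit as reported on that scale, 62.9% of all genes were called higher and 0.308% lower. The share of each direction in the other fits was not computed. In the replicate block fit of the values as deposited, Myh7 had an adjusted p of 0.0185, Myh8 of 0.0629 and Myh4 of 0.128. The replicate numbers were not found to pair the libraries: the correlations of same-numbered libraries were 0.21, -0.12, -0.23 and -0.06, and 1 of 4 controls correlated best with its own number. Signs that changed were those of small or widely spread differences. The log2 difference of Myh1 became 0.33 under quantile normalisation and ran from -0.27 to 0.13 when 1 library was left out, that of Myh7 from -2.64 to 0.072 and that of Myh7b from -0.75 to 0.016. On the muscle scale the ranges without 1 library were -0.48 to 0.057 for Myh2, -1.99 to 0.73 for Myh7, -1.43 to 0.38 for Myh6 and -0.20 to 0.63 for Myh7b. For the ratios to Myh4 they were -0.17 to 0.71 (Myh2), -1.54 to 1.07 (Myh7), -1.01 to 0.91 (Myh6), -0.28 to 0.39 (Myh3) and -0.52 to 0.22 (Myh8). The cause of these changes was not tested. Myh3, Myh4 and Myh8 were below 0 in each of their 18 alternatives. The depth was not limiting for the adult fast chains. Few reads underlie Myh6 in knockout replicate 1 (39.9 normalised reads) and control replicate 4 (51.5). The same holds for Myh7 in knockout replicate 3 (46.8).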
